A study of Arabidopsis thaliana with 6 samples.

Results

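The 6 genes described here act in the responses of Arabidopsis to salicylate, ethylene and wounding: ICS2, PR5, MKS1, ERF4, RHL41 and HSPRO2. They are 6 of 14186 loci that could be named on the arrays. They had been picked because earlier results of the same arrays showed them to differ between wild type and agp6 agp11 pollen tubes, so that difference is given for them as a description and not as a test. Each locus had 1 named probe set, and its name came from the rows of the study's Additional file 1, which the platform table does not cover for these loci.

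Both genotypes are of the ecotype Nossen. Wild type plants served as controls, and agp6 agp11 is a homozygous double null line with Ds transposon insertions in 2 arabinogalactan protein genes expressed in pollen, bred from a cross of a pair of insertion lines, so the mutant is represented by a single line. Pollen of newly opened flowers, pooled from many flowers, was germinated in vitro in the dark for 8 h, and pollen tubes were collected on a mesh that let ungerminated grains pass. For each genotype, RNA was taken from 3 preparations, and each was hybridised to 1 Affymetrix ATH1 array. Values are signals normalized by dChip, on a linear scale.

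Salicylate is made from chorismate, the end product of the shikimate pathway, which isochorismate synthases such as ICS2 convert to isochorismate. Its rise after infection switches on genes for pathogenesis-related proteins, of which PR5, a thaumatin-like protein, is a classical marker. Ethylene and jasmonate, the hormones of wounding and of attack by necrotrophs, act in part through ethylene response factors that bind the GCC box, and ERF4 is a repressor of that family. Pollen tubes, which grow at the tip and invade the tissue of the pistil, form from single pollen grains and carry the sperm cells to the ovule.

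AGP6 and AGP11, disrupted in the mutant, were checked first. AGP6 signals were 9597 to 13677 on the wild type arrays and 15.1 to 31.1 on the mutant arrays, and AGP11 signals were 5604 to 10016 and 32.5 to 40.4. Over all 22746 probe sets the median signal of an array was 23.3 to 24.5, and 6280 to 6795 probe sets an array lay above 40, the signal above which a gene is taken here as detected. The median log2 difference between genotypes over all probe sets was 0.03. Limma, with Benjamini-Hochberg adjustment over all probe sets and a threshold of 0.05, called 837 probe sets, or 3.68%, with 2.01% higher and 1.67% lower in agp6 agp11. Same-numbered arrays of the genotypes tended to deviate from their means in the same way. With the replicate number as a block, limma called 1897 probe sets, or 8.34%, with 5.03% higher and 3.31% lower.

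The pollen identity of the samples was checked on marker genes. All 5 named of 10 listed markers of the vegetative cell, the cell that forms the tube, exceeded 40 in both genotypes, and their summed signal was 5834 to 8525 on wild type arrays and 9992 to 10860 on mutant arrays. All 5 named of 8 sperm cell markers exceeded 40, with sums of 8833 to 11505 and 16027 to 22161. Of 9 markers of leaf and sepal photosynthesis 4 were named, with sums of 91.3 to 115 and 127 to 174, and only GAPA exceeded 40 on at least 2 arrays of a genotype, with signals of 57.7, 61.7 and 52.8 in agp6 agp11. The 2 named of 10 tapetum markers, A9 and AMS, stayed below 40 on every array. The sums of the vegetative, sperm and photosynthesis markers did not overlap between genotypes. However, 2 of the vegetative markers, 4 of the sperm markers and GAPA were named through Additional file 1 alone, whose rows the study had selected by fold change. Without them the vegetative sums (3372 to 5296 and 5239 to 5635) and the photosynthesis sums (70.3 to 88.4 and 69.7 to 112.5) overlapped. The remaining sperm marker, MGH3, had signals of 2920 to 3385 in wild type and of 4147 to 6405 in agp6 agp11. MGH3 was also a row of Additional file 1. Its adjusted p was 0.241 by limma, and 0.0244 with the replicate block. The part of these markers in the differences below was not tested. In RNA of whole preparations, fewer cells of a type cannot be told apart from less RNA per cell.

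Of the 6 genes, 2 were higher in agp6 agp11 (ICS2 and HSPRO2) and 4 were lower (PR5, ERF4, RHL41 and MKS1). For each of the 6, wild type and mutant arrays did not overlap, as for 20.0% of all probe sets (11.3% with agp6 agp11 above and 8.71% with it below) and for 30.2% of the 7195 probe sets detected in at least 1 genotype. All 6 were among the limma calls without the block and all 6 with it, beside the 3.68% and 8.34% of all probe sets called and 9.24% of the detected ones without the block. For all 6 the fold change kept a 90% lower bound over 1.3, as for 6.46% of all probe sets. These counts follow from the way the genes were picked, and nothing is read from them. All 6 exceeded 40 on at least 2 arrays of at least 1 genotype, and 3 of them (ERF4, RHL41 and HSPRO2) did so in both genotypes.

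**Figure D1:**
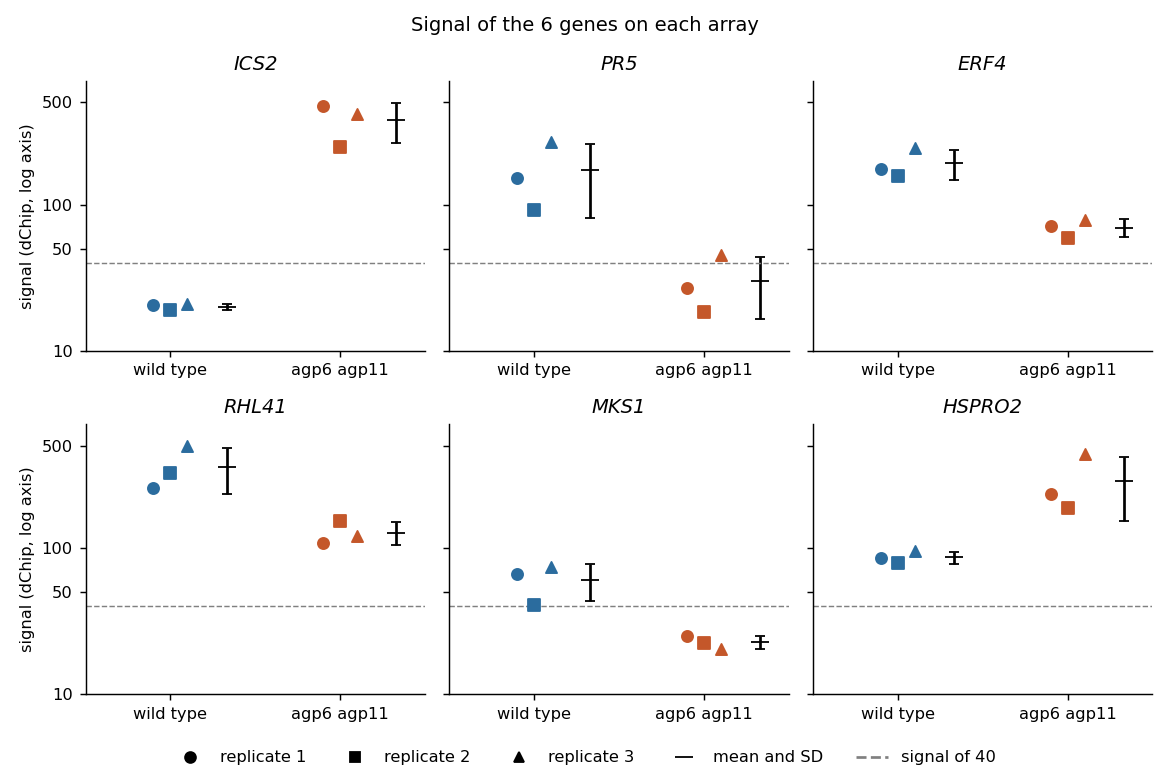
Signal of each gene (log axis) on the 3 wild type and 3 agp6 agp11 arrays, 1 symbol per replicate number, with the mean and SD beside them and a dashed line at a signal of 40. ICS2 and HSPRO2 lie higher in agp6 agp11, the other 4 genes lower, and ICS2 in wild type and MKS1 in agp6 agp11 lie below 40 on every array.

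ICS2 (AT1G18870) encodes one of the isochorismate synthases of the plastid, whose product leads to salicylate and also to phylloquinone, the quinone of photosystem I. Its signal was 20.4, 18.9 and 20.8 in wild type replicates 1, 2 and 3, and 472, 249 and 414 in agp6 agp11 replicates 1, 2 and 3. The wild type arrays were therefore close together and all below 40, and every mutant array lay far above 40, replicate 2 being the dimmest. The log2 difference was 4.19 with a standard error of 0.27, or 0.19 with the replicate block. Because wild type was not detected, the fold is given as at least 9.12, with each wild type array set to 40. Only 0.0220% of all probe sets had a higher log2 difference.

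PR5 (AT1G75040), the thaumatin-like pathogenesis-related protein, had signals of 151, 92.2 and 269 in wild type and of 26.8, 18.5 and 45.1 in agp6 agp11 for replicates 1, 2 and 3. It was detected on all wild type arrays and on 1 mutant array, replicate 3. Its spread was the widest of the 6 genes in wild type, with 171 ± 90.2 (SD, n = 3), a coefficient of variation of 52.8%, and it was 30.1 ± 13.6 in agp6 agp11. In both genotypes replicate 3 was the brightest and replicate 2 the dimmest array, and the wild type array was the brighter one of each same-numbered pair. The log2 difference was -2.47, and its standard error was 0.42 without the replicate block and 0.16 with it. With mutant arrays below 40 set to 40, the signal was at least 3.74-fold lower in agp6 agp11.

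MKS1 (AT3G18690) encodes a substrate of MAP kinase 4 that binds WRKY transcription factors and takes part in defence that depends on salicylate. Its signals were 66.1, 40.8 and 73.8 in wild type and 24.9, 22.3 and 20.4 in agp6 agp11. All wild type arrays exceeded 40, replicate 2 only just, and no mutant array did. Its log2 difference was -1.38 (standard error 0.24), and with the mutant arrays set to 40 the signal was at least 1.46-fold lower.

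ERF4 (AT3G15210), the repressor among the ethylene response factors, had signals of 175, 158 and 244 in wild type and of 71.0, 58.9 and 78.6 in agp6 agp11. All 6 arrays exceeded 40, and the lowest wild type array was 2.01-fold above the highest mutant array. The log2 difference was -1.45 (standard error 0.25), a 2.74-fold lower signal. Within replicate numbers the wild type array was 2.46-, 2.68- and 3.11-fold brighter.

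RHL41 (AT5G59820), also known as ZAT12, encodes a zinc finger protein induced by high light, cold, oxidative stress and wounding. Its signals were 255, 323 and 496.5 in wild type and 108, 153 and 120.05 in agp6 agp11. The log2 difference was -1.45 (standard error 0.30), a 2.74-fold lower signal, and the ratio of same-numbered arrays ranged from 2.11 in replicate 2 to 4.14 in replicate 3. It was detected on every array, and its lowest wild type array was 1.67-fold above its highest mutant array.

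HSPRO2 (AT2G40000) is the Arabidopsis relative of a nematode resistance gene of sugar beet, and takes part in basal resistance to bacteria. Its signals were 84.65, 78.2 and 94.8 in wild type and 234, 187 and 435 in agp6 agp11. The wild type arrays lay close together, with 85.9 ± 8.37 (SD, n = 3), while the mutant arrays spread widely, with 285 ± 132, and replicate 3 was the brightest. This amounts to a log2 difference of 1.64 (standard error 0.32), a 3.11-fold higher signal, and it was 1.29 to 1.90 when 1 array was left out. Same-numbered mutant arrays were 2.76-, 2.39- and 4.58-fold brighter than wild type.

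**Figure D2:**
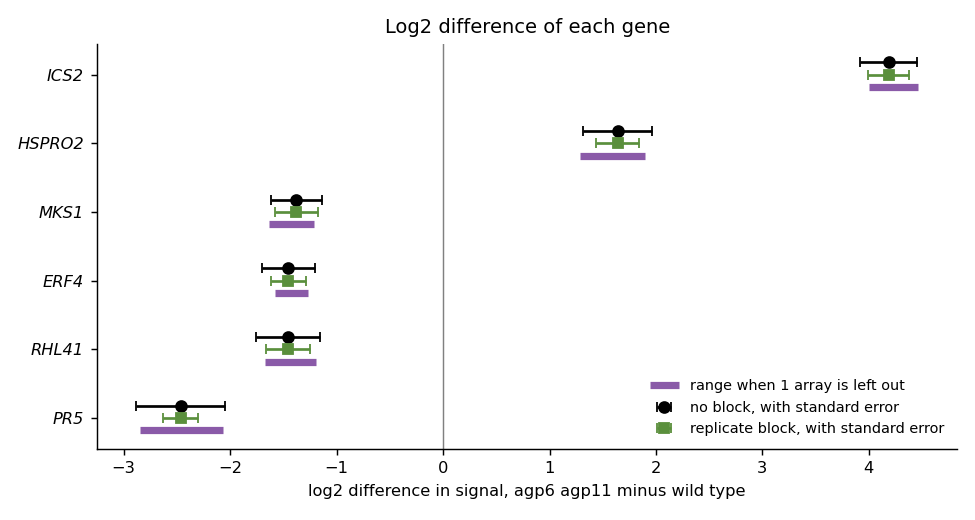
Log2 difference in signal (agp6 agp11 minus wild type) of each gene, without and with the replicate number as a block (bars: standard error), and its range when 1 of the 6 arrays is left out. Both fits give the same difference, from -2.47 for PR5 to 4.19 for ICS2, and no range reaches 0.

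All 6 standard errors were smaller with the replicate block, most of all for PR5. The sign of the difference was the same for all 6 genes in limma's main setting and in 13 other settings, among them other normalizations and the omission of each array. How many of the 6 were among the limma calls depended on single arrays. It was 1 (ICS2) when replicate 1 of either genotype was left out, 4 when wild type replicate 2 was, and 5 when replicate 3 of either genotype was. RHL41 was called in the fewest settings, 9 of 14.

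**Figure D3:**
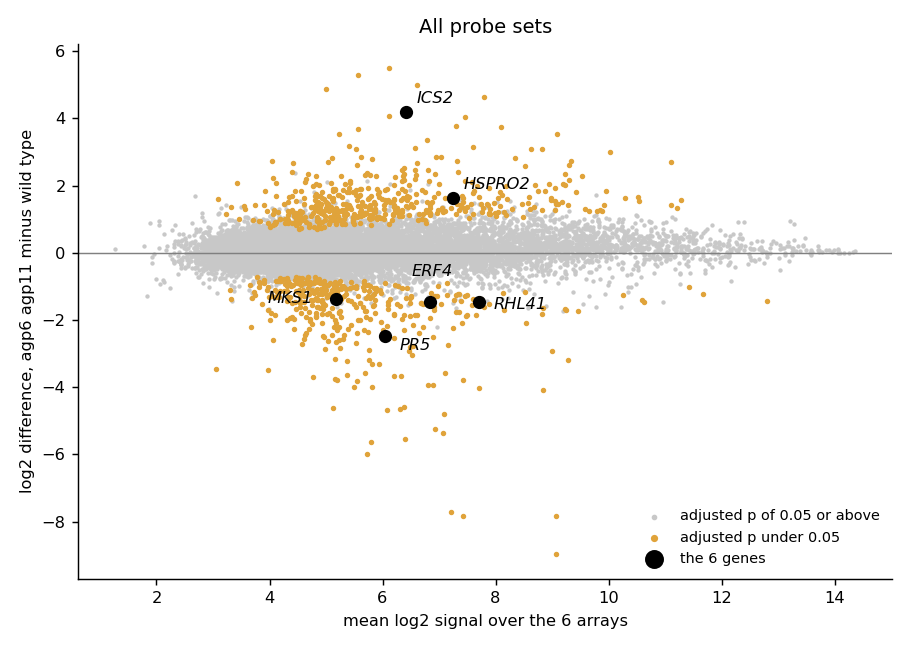
Log2 difference (agp6 agp11 minus wild type) against the mean log2 signal of the 6 arrays for all 22746 probe sets, with the 837 limma calls in orange and the 6 genes in black. ICS2 lies near the upper edge with 4.19, and ERF4, RHL41 and MKS1 lie close together between -1.46 and -1.37.

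The genes were picked for a difference between genotypes, and how clear such a difference is depends on the spread of the replicates. The replicate patterns below are therefore not independent of that choice. In wild type, replicate 3 was the brightest array for all 6 genes, as it was for 32% of the 7195 probe sets detected in at least 1 genotype. In agp6 agp11 it was the brightest for 3 genes (PR5, ERF4 and HSPRO2), against 22.7% of those probe sets. Replicate 2 was the dimmest in both genotypes for 4 genes (ICS2, PR5, ERF4 and HSPRO2), against 23.1%. PR5, ERF4 and HSPRO2 had the same order of replicates in both genotypes, which 38.7% of the probe sets showed, whereas ICS2, RHL41 and MKS1 had different orders. The genes share the same 6 arrays, so these counts describe 3 replicate pairs and were not tested. The signals of ICS2 in wild type and of MKS1 in agp6 agp11, and 2 of the 3 of PR5 in agp6 agp11, were below 40, so their order of arrays was read below the limit of detection.

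**Figure D4:**
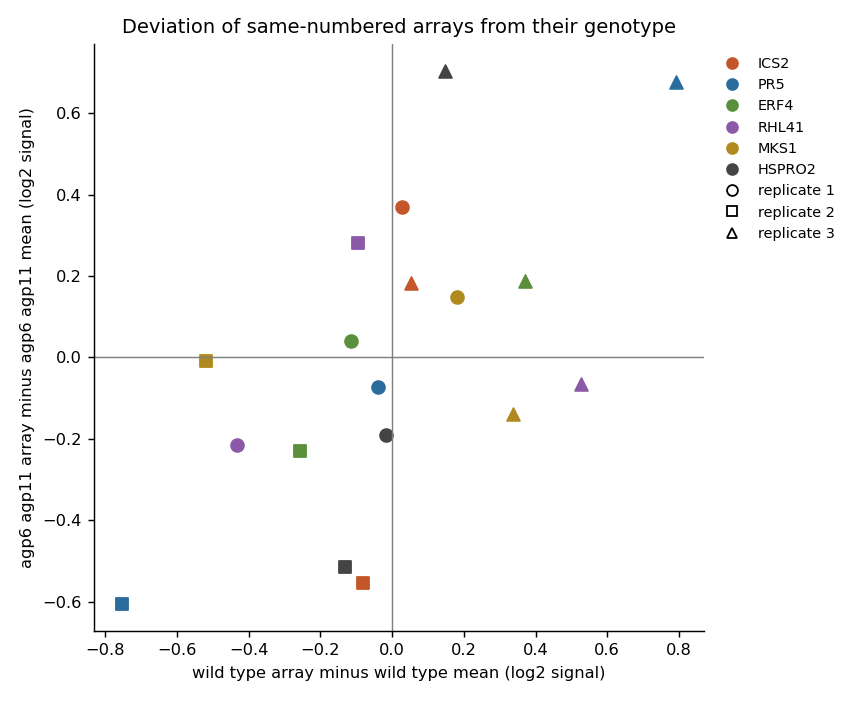
Deviation of each array from the mean of its genotype in log2 signal, wild type on the horizontal and agp6 agp11 on the vertical axis, for each gene (colour) and replicate number (symbol). PR5 extends farthest along the diagonal, from -0.75 and -0.61 in replicate 2 to 0.79 and 0.68 in replicate 3, and RHL41 and MKS1 have replicate 3 above the mean in wild type and below it in agp6 agp11.

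The genes whose log2 signals over the 6 arrays were most like those of each gene were taken from 3643 other loci. These were named by the platform table and had a mean signal above 40 over the 6 arrays, so a locus could pass through 1 genotype alone. AT4G05040, AT3G57165 and AT1G32590, named below, were under 40 on every wild type array. Their signals there were 17.2 to 18.6, 23.3 to 33.45 and 16.4 to 19.1, and ICS2 was likewise not detected in wild type. Every such correlation contains the difference between genotypes and rests on 6 arrays. ICS2 was most like AT4G05040 and COR27, a gene regulated by cold and the circadian clock, with a Pearson's r of 0.999 for each, and 175 loci reached an r of 0.95. COR27 had signals of 145, 169 and 166 in wild type and of 2310, 1402 and 1975 in agp6 agp11. PR5 was most like AT1G07270 (r = 0.998), ERF4 like AT4G25680 (0.996) and MKS1 like AT4G13360 (0.993). HSPRO2 was most like AT3G57165 and AT1G32590 (0.993 each), and RHL41 like UBC30, a ubiquitin-conjugating enzyme gene (0.987). Only 13 loci reached an r of 0.95 with RHL41, and 35 to 68 did so with PR5, ERF4, MKS1 or HSPRO2.

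For the pathways around the 6 genes, 194 other genes had been listed by their role, and 34 of them had a named probe set. By limma 4 of the 34 rose, 7 fell and the remaining 23 missed the threshold. The replicate block gave 9 that rose and 8 that fell. Their median log2 difference was -0.06, beside 0.03 over all probe sets. Of the 34, 16 owe their name to Additional file 1 alone, whose rows the study had selected by fold change on these arrays, and are therefore no independent sample of their pathways. Of the 18 named by the platform table, 1 rose and 2 fell, or 16.7%, against 3.69% of the 13344 loci that this table names. With the replicate block it was again 1 and 2, against 8.09%. The genes called, PDF1.2B, ZAT5 and JMT, were also rows of Additional file 1. The lists had been made with earlier results of these data known, so these 18 are no independent sample either. Wild type and mutant arrays did not overlap for 20 of the 34, made up of all 16 genes named by Additional file 1 alone and 4 of the 18 named by the platform table (22.2%, beside 20.0% of all probe sets). When replicate 1 of either genotype was left out 5 of the 34 passed, and when wild type replicate 2 was left out 6 passed.

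**Figure D5:**
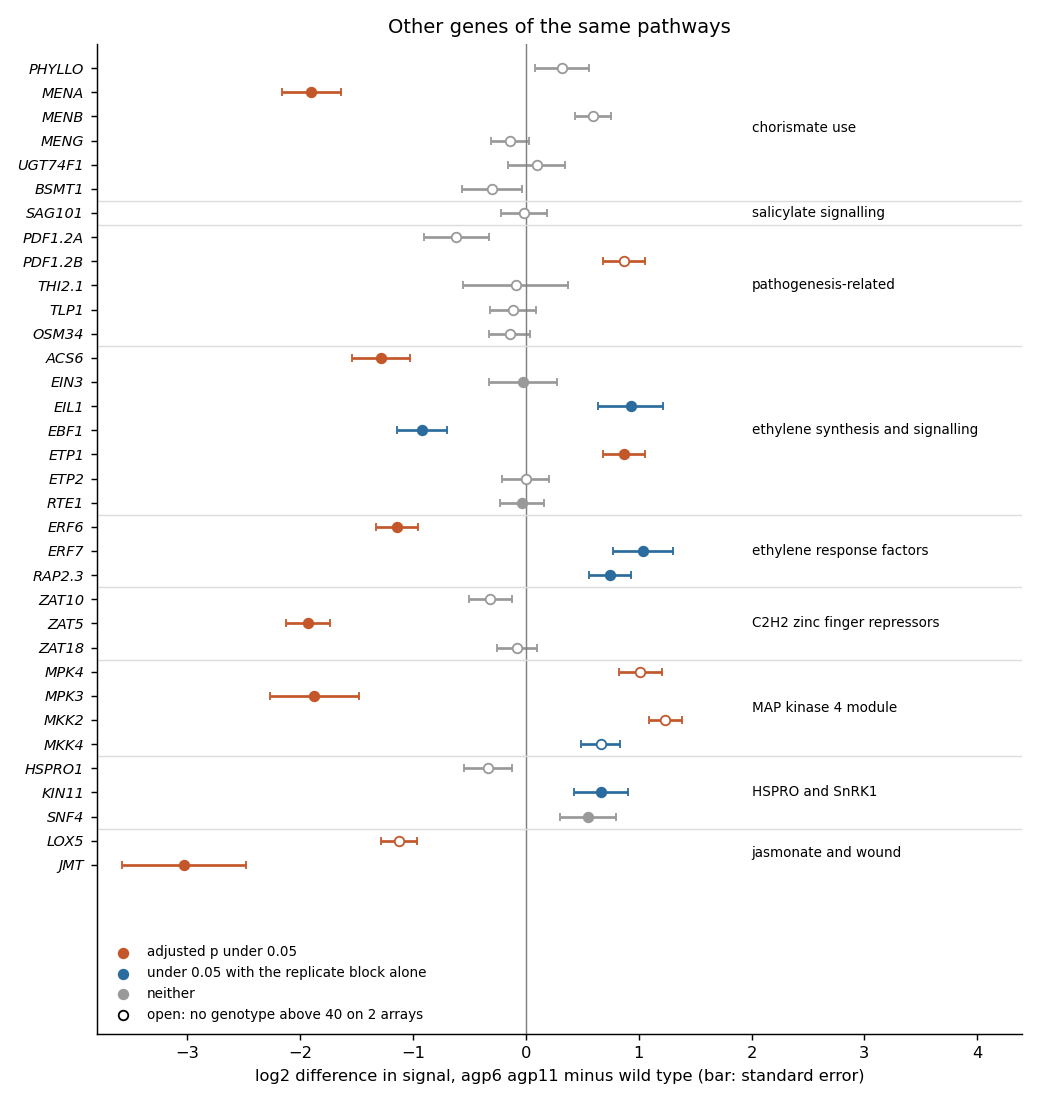
Log2 difference (agp6 agp11 minus wild type, bar: standard error) of the 34 other named genes, grouped by list. Orange marks an adjusted p under 0.05 in limma (11 genes), blue one under 0.05 with the replicate block alone, and open circles mark genes that exceeded 40 on fewer than 2 arrays of both genotypes; JMT lies farthest to the left at -3.03.

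Around ICS2, 6 of 22 genes that make or use chorismate and salicylate were named, of which 1 fell and 5 did not pass. ICS1, the closest relative of ICS2, was not among the 6 named. The gene that fell was MENA (AT1G60600), which acts in the branch from isochorismate to phylloquinone. Its signals were 124, 111 and 73.6 in wild type and 33.9, 27.6 and 21.0 in agp6 agp11 (log2 difference -1.90, standard error 0.26, adjusted p = 0.00345 by limma, at least 2.52-fold lower). It was lower on every mutant array, whereas ICS2 was higher on every mutant array. The other phylloquinone genes PHYLLO, MENB and MENG exceeded 40 on no array, with adjusted p-values of 0.630, 0.0795 and 0.800. BSMT1, whose enzyme methylates salicylate and benzoate, was below 40 on every array as well (adjusted p = 0.705).

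In salicylate signalling only SAG101, a partner of EDS1 in immunity, was named of 26 genes, at signals of 11.4 to 17.7 on the 6 arrays. Of 16 listed pathogenesis-related genes 5 were named, and none was detected on 2 arrays of a genotype. PR1 and PR2 were not among the 5 named. PDF1.2B (AT2G26020), a plant defensin, rose from 16.7 ± 1.81 to 30.7 ± 6.19 (SD, n = 3; log2 difference 0.87, adjusted p = 0.0352 by limma) without reaching 40 on any array. Its probe set has a name ending in _x_at, which marks probes that can match other genes, and its call was lost without any 1 of wild type replicates 1, 2 and 3 or agp6 agp11 replicate 1 (adjusted p = 0.192, 0.0697, 0.0846 and 0.154). Another defensin, PDF1.2A, and the thionin THI2.1 had adjusted p-values of 0.392 and 0.964. The thaumatin-like relatives of PR5 on this list that were named, TLP1 and OSM34, had signals of 8.88 to 12.5 and of 11.9 to 17.3. Thus PR5 was the one thaumatin-like gene of these 3 above 40 in wild type tubes, which says nothing of genes outside the list. AT1G75050, the gene next to PR5, was not on it and exceeded 40 on every array. Its signals were 73.4 to 135 in wild type and 134 to 293 in agp6 agp11.

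In ethylene synthesis and signalling, 7 of 29 genes were named: 1 rose, 1 fell and 5 did not pass. ACS6 (AT4G11280), an enzyme of the committed step of ethylene synthesis, fell from 164, 170.1 and 266 in wild type to 76.5, 91.8 and 73.8 in agp6 agp11 (log2 difference -1.28, standard error 0.26, adjusted p = 0.0245). Every array lay above 40 and the genotypes did not overlap. The call was lost without any 1 array other than wild type replicate 3 (adjusted p = 0.0501 to 0.120). ETP1 (AT3G18980), an F-box protein that targets the signal transducer EIN2, rose from 32.9, 37.3 and 30.2 to 66.2, 63.3 and 53.8 (log2 difference 0.87, adjusted p = 0.0349, at least 1.52-fold), and the call was lost without any 1 array other than agp6 agp11 replicate 3 (0.0677 to 0.185).

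EIN3 and EIL1 are the transcription factors at the end of the ethylene pathway, and EBF1 is an F-box protein that removes them. The mean signal of EIN3 (AT3G20770) was 5854 ± 1289.8 in wild type against 5833 ± 1689.6 in the mutant (SD, n = 3), a log2 difference of -0.02 with a standard error of 0.30. EIL1 (AT2G27050) had signals of 1701, 1283 and 1520 in wild type and of 3894, 2156 and 2727 in the mutant. Its adjusted p was 0.143, and 0.00591 with the replicate block. EBF1 (AT2G25490) had 146, 158 and 147 in wild type and 75.6, 94.5 and 70.5 in agp6 agp11. Its adjusted p was 0.0522, and 0.00708 with the replicate block. RTE1, a regulator of the receptor ETR1, had signals of 41.0 to 54.7 on the 6 arrays (adjusted p = 0.967).

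Of 23 other ethylene response factors 3 were named, all through Additional file 1. ERF6 (AT4G17490), an activator of defence genes, fell from 50.4, 54.3 and 53.2 to 27.2, 25.7 and 19.4 (log2 difference -1.14, standard error 0.19, adjusted p = 0.00899 by limma, at least 1.32-fold lower). ERF7 (AT3G20310), a repressor of the same subfamily as ERF4, had 51.1, 47.8 and 36.7 in wild type and 85.2, 129.7 and 70.7 in agp6 agp11, the opposite direction to ERF4. Its adjusted p was 0.0716, and 0.00708 with the replicate block. RAP2.3 (AT3G16770), of a subfamily that responds to low oxygen, had 23.1 ± 2.49 and 38.9 ± 6.35 (SD, n = 3; adjusted p = 0.0681, and 0.0180 with the replicate block).

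Of 10 other zinc finger proteins of the kind of RHL41, 3 were named, and 1 fell. ZAT5 (AT2G28200) had signals of 46.7, 46.5 and 30.1 in wild type and of 10.7, 10.8 and 10.2 in agp6 agp11 (log2 difference -1.93, adjusted p = 6.57e-04 by limma). Since wild type lay near 40, the fall is at least 1.01-fold. ZAT10, the best studied relative of RHL41 in stress responses, had 14.4 to 22.3 in wild type and 13.5 to 15.9 in agp6 agp11 (adjusted p = 0.544), and ZAT18 did not pass either (0.906). No gene of 12 listed for reactive oxygen was named.

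Around MKS1, 4 of 17 genes of the MAP kinase 4 module and its relatives were named, all through Additional file 1: 2 rose, 1 fell and 1 did not pass. MPK3 (AT3G45640), a kinase activated by pathogens and wounding, fell from 75.1, 113 and 34.1 to 14.9, 24.4 and 16.3 (log2 difference -1.87, standard error 0.39, adjusted p = 0.0294, at least 1.65-fold lower). Omission of wild type replicate 1, wild type replicate 2 or mutant replicate 1 ended the call (adjusted p = 0.138, 0.0789 and 0.159). MPK4 (AT4G01370), the kinase that phosphorylates MKS1, rose from 12.6, 13.0 and 15.6 to 24.2, 34.9 and 25.0 (adjusted p = 0.0177). Omission of replicate 1 or replicate 2 of either genotype ended the call (0.107 and 0.0690 for wild type, 0.0517 and 0.0611 for the mutant). MKK2 (AT4G29810), a kinase that activates MPK4, rose from 15.3, 14.7 and 15.3 to 35.6, 33.6 and 37.8 (adjusted p = 0.00165). Neither MPK4 nor MKK2 reached 40 on any array. MKK4 had 21.4 to 23.2 and 29.0 to 39.1, with an adjusted p of 0.0839, and 0.0371 with the replicate block.

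Around HSPRO2, 3 of 4 genes were named and none passed the limma test. HSPRO1 (AT3G55840), the closest relative, had signals of 21.2 to 24.7 in wild type and of 13.2 to 22.0 in agp6 agp11 (adjusted p = 0.552). KIN11 and SNF4 encode subunits of SnRK1, the energy sensing kinase whose subunit SNF4 binds HSPRO proteins. KIN11 had 68.8 ± 13.3 and 109 ± 17.6 (SD, n = 3; adjusted p = 0.219, and 0.0410 with the replicate block), and SNF4 had 75.5 ± 5.54 and 113 ± 29.0 (adjusted p = 0.362).

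Of 35 genes of the jasmonate and wound response 2 were named, and both fell, where 1.67% of all probe sets did. JMT was named by both sources and LOX5 by Additional file 1 alone, so that both were among the rows selected for their change. JMT (AT1G19640), which methylates jasmonate, fell from 340, 540.3 and 100.3 in wild type replicates 1, 2 and 3 to 36.7, 43.6 and 21.1 in agp6 agp11. The log2 difference was -3.03 (standard error 0.55, adjusted p = 0.0143 by limma), at least 6.41-fold lower. In wild type its replicate 3 was the dimmest array, whereas that of PR5 was the brightest. Omission of replicate 1 of either genotype ended the call (adjusted p = 0.0800 for wild type and 0.0746 for the mutant). LOX5 (AT3G22400), a lipoxygenase, fell from 27.5, 25.9 and 27.6 to 11.6, 14.3 and 11.4 (adjusted p = 0.00379) and was below 40 on every array.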

How the data were processed

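The authors normalized the 6 arrays to a baseline array with the invariant set method in DNA-Chip Analyzer, and deposited linear intensity values that its model derives from the perfect match probes alone. Affymetrix Expression Console was used by the authors for quality control. Probe-level data were not used here. Signals were raised to at least 1, taken as log2 and compared with limma 3.58.1 in R 4.3.3 (eBayes with an intensity trend), with Benjamini-Hochberg adjustment over 22746 probe sets, after tests on simulated data. Other steps used Python 3.11.15.

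A platform table, read through RefSeq gene IDs, named 13484 probe sets, and Additional file 1 named 1995, of which 842 had no platform name; the brightest probe set stands for a locus. Members and lists were chosen with earlier results of these data known. Genes named in the text are the 6, AGP6, AGP11 and relatives of the 6. From each pathway list they are the members that passed and up to 4 others with the smallest p. Some markers, loci most like each of the 6 and chromosomal neighbours are also named. A fold is "at least" where 1 genotype had fewer than 2 arrays above 40 and its arrays were raised to 40. Deviations of same-numbered arrays from their genotype means correlated with r = 0.239 (replicate 1), 0.347 (replicate 2) and 0.379 (replicate 3). No differently numbered pair exceeded 0.0711, so replicate numbers were treated as pairs. The labels do not say what same-numbered arrays share, so the pairing rests on these arrays alone. Alternatives were quantile and median scaling, an offset of 32, a signal filter, no trend in eBayes, the replicate block, array weights, leaving out each array, and the 90% lower bound of the fold change, above 1.3. Planned counts of promoter and protein motifs were not run. The number of arrays limits precision.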

Additional observations from a re-analysis of the deposited data

How the results depend on the processing

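The count of limma calls over all probe sets (837) was 1897 with the replicate block, 2019 with array weights and 1469 by the 90% lower bound of the fold change, and 372 to 871 when 1 array was left out. Of the 6 genes, all 6 passed in each of these but the omissions, in which 1 to 6 passed. Of the 34 pathway genes, 11 passed, 17 with the replicate block, 18 with array weights, 17 by the lower bound and 5 to 12 when 1 array was left out. Among the named pathway genes the replicate block changed no call beyond those given for EIL1, EBF1, ERF7, RAP2.3, MKK4 and KIN11. The cause of these shifts was not tested. An offset of 32 before the log2 lowered the difference of ICS2 to 2.94. It moved that of PR5 to -1.64, of ERF4 to -1.13 and of MKS1 to -0.74. It also ended the calls of MPK3 (adjusted p = 0.0632) and PDF1.2B (0.0544), and eBayes without trend ended that of PDF1.2B (0.0542). No named gene that passed changed direction. Genes below a signal of 40 in both genotypes limit what can be said of their pathways.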

Other observations

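Genes beside the 6 on the chromosome were examined after their values had been seen, 3 protein-coding genes on each side in the order of the TAIR10.1 assembly. Of these 36 neighbours 21 had a named probe set and 2 passed the limma test, 4 with the replicate block, where 3.68% and 8.34% of all probe sets did. Both calls, CDPK1 and EIF2, were named by Additional file 1 alone, whose rows were selected by fold change. Among the 18 neighbours that the platform table names, 0 passed by limma, 1 did with the replicate block (AT1G75050, also a row of Additional file 1), and 1 had an unadjusted p under 0.05. CDPK1 (AT1G18890), a calcium-dependent protein kinase gene that lies 3 genes from ICS2, had signals of 10.4, 12.5 and 11.7 in wild type and of 50.6, 33.7 and 41.2 in agp6 agp11 (adjusted p = 6.55e-04 by limma). As for ICS2, wild type was below 40 on every array and replicate 2 was the dimmest mutant array. The genes between them had no named probe set here, and IQD30 and AT1G18850 on the other side of ICS2 stayed below 20 on every array.

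AT1G75050, next to PR5, ran opposite to it, with 91.1, 135 and 73.4 in wild type and 293, 187 and 134 in agp6 agp11 (adjusted p = 0.189, and 0.0241 with the replicate block). EIF2 (AT2G39990), next to HSPRO2, also ran opposite to its neighbour: it fell from 127, 105 and 146 to 65.2, 56.6 and 58.1 (adjusted p = 0.0264 by limma).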
